A study of Mus musculus with 4 samples.

Results

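Genes of the ephrin, Slit-Robo and netrin guidance systems were followed in 2 populations of hair peg cells of mouse embryonic skin. Members were taken by gene symbol alone, as the Eph receptors, the ephrins, Slit1 to Slit3, Robo1 to Robo4, Ntn1 to Ntn5, Unc5a to Unc5d, Dcc and Neo1. In all, 39 of the 23361 genes in the deposited expression table were members. They comprised 14 Eph receptors, 8 ephrins, 3 Slits, 4 Robo receptors, 4 netrins and 6 netrin receptors.

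RNA was sequenced from 2 Nfatc1+ and 2 Shh+ libraries of back skin cells at E17.5. All embryos carried the Rosa-stop-tdTomato reporter and K14-H2BGFP, a nuclear GFP under the keratin 14 promoter, and received tamoxifen at E15.5, with CreER expressed from Nfatc1 in one group and from Shh in the other. Cells with both fluorescent proteins were sorted, so each population held descendants of the cells marked 2 days earlier, whether or not they still expressed the driver gene. Nfatc1+ cells were released from whole skin with 0.25% trypsin for 16 min at 37 °C, while for Shh+ cells the epidermis was lifted off after 1 h in dispase (0.4 mg/ml, 37 °C) and only the dermis with its hair pegs went into trypsin, for 10 min. The population and the way the cells were released cannot be told apart in these libraries. Since no label states that replicates are separate animals or litters, p-values here measure the spread between libraries alone, and that spread may be technical.

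Ephrins are ligands held on the cell surface, by a lipid anchor in the A class and by a transmembrane segment in the B class, and they signal to Eph receptor tyrosine kinases on the neighbouring cell while also signalling back into their own cell. Slits are secreted proteins that bind Robo receptors, and netrins are secreted relatives of laminins that bind Dcc, neogenin (Neo1) and the Unc5 receptors. All of these systems were first known from the steering of axons, and in epithelia they take part in cell sorting, boundary formation, adhesion and migration.

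Values are FPKM, fragments scaled by transcript length and by the mapped fragments of the library, so that levels can be set side by side between genes. A gene was tested where its mean over the 4 libraries was at least 0.5 FPKM, and was called where limma, fitted over all 12750 tested genes on log2(FPKM + 0.5), gave an adjusted p under 0.05 after Benjamini-Hochberg correction. The log2 fold change (log2FC) is the Shh+ mean less the Nfatc1+ mean of these log values, given with its standard error (SE) where it matters. It is damped for low genes by the pseudocount, and a plain fold is a ratio of mean FPKM. Of the 39 members, 26 were tested and 13 were too low. The depth of the libraries is unknown, but low values gave relative depths of 1 and 0.927 for Nfatc1+ replicates 1 and 2 and of 0.927 and 0.575 for Shh+ replicates 1 and 2.

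The guidance genes changed in both directions. Of the 26 tested members, 8 were higher in Shh+ cells, where 14.9% of all tested genes were called in that direction. Another 7 were higher in Nfatc1+ cells, a direction called for 16.6% of all tested genes. At a fold of at least 2, Robo1 alone was higher in Shh+ cells (background 4.7%), and Ephb6, Ephb1, Efnb2, Epha4 and Ntn4 were higher in Nfatc1+ cells (background 5.72%). Of these, Ephb1 passed the filter only through its Nfatc1+ values. Both libraries of one population lay above both libraries of the other for 24 of the 26 members, as they did for 70.7% of all tested genes. The median log2 fold change was -0.20 over the tested members and 0.0018 over all tested genes. In bulk RNA such as this, fewer cells that express a gene and less RNA per cell cannot be told apart.

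**Figure D1:**
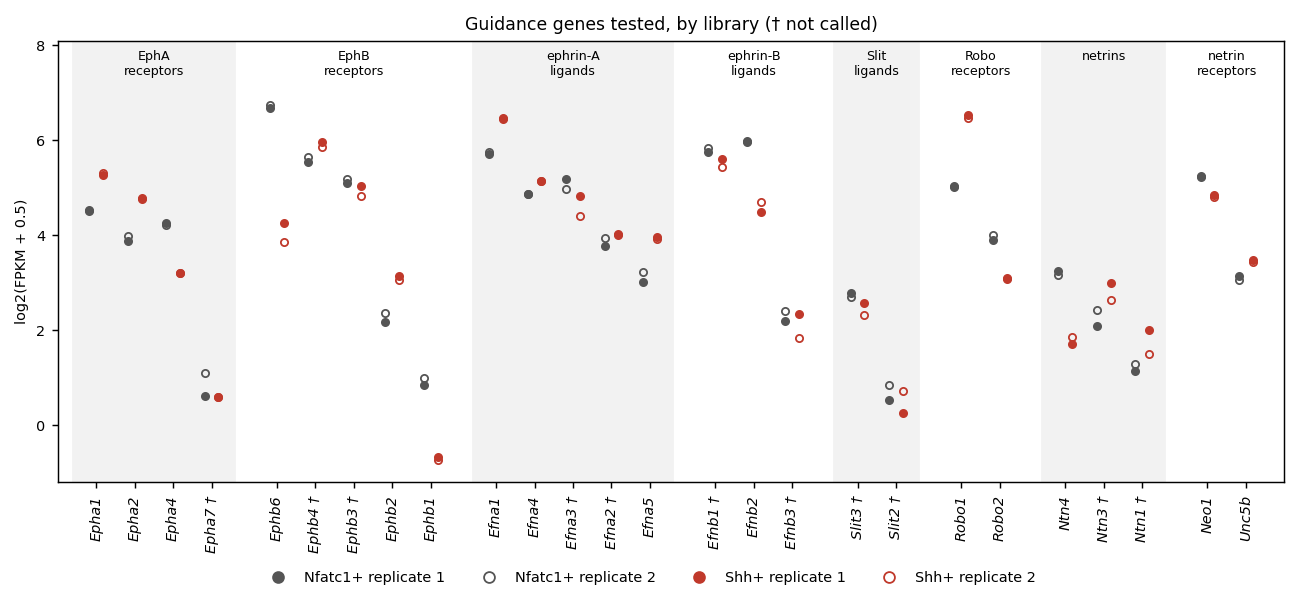
Expression of the 26 tested guidance genes as log2(FPKM + 0.5) in each library, grouped by class, with Nfatc1+ libraries in grey and Shh+ libraries in red, replicate 1 filled and replicate 2 open, and a dagger on genes that were not called. The widest gaps are those of Ephb6, higher in both Nfatc1+ libraries, and of Ephb1, Robo1, Ntn4 and Efnb2.

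Sequence upstream of 4 members is shown because these genes lie at the extremes of the change or hold a match to a factor named in the study. Each is the 250 bases before the RefSeq start site, in GRCm38.p6 and on the strand of the gene, with searched letters in capitals. The windows are chr6:41605261-41605510 (+) for Ephb6, chr9:102354694-102354943 (-) for Ephb1, chr4:141300971-141301220 (+) for Epha2 and chr16:72662899-72663148 (+) for Robo1.
Ephb6: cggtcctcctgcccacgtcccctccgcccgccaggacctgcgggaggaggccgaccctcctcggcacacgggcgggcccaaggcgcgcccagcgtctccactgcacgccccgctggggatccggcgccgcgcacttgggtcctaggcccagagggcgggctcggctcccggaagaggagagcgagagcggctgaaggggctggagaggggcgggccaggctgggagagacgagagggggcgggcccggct
Ephb1: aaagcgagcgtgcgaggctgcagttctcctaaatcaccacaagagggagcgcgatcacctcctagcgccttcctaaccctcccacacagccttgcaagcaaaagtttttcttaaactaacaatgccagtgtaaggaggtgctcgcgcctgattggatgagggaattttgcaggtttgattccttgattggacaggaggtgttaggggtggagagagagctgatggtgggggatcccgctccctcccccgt
Epha2: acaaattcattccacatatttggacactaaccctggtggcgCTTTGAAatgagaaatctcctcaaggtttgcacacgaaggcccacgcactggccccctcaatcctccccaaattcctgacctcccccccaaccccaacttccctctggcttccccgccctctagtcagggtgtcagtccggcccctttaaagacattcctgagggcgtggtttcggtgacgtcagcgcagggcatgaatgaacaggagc
Robo1: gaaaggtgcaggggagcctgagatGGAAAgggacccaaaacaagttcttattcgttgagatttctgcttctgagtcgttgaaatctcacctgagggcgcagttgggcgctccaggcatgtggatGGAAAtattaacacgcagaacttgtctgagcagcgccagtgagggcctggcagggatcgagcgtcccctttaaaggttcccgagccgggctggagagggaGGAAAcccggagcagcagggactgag
The last 29 bases of the Ephb6 window are already exon in the GENCODE annotation, and the Robo1 window lies inside the longer gene model of GENCODE.

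The letters searched, on both strands, were CTTTGAA or CTTTGAT or CTTTGTA or CTTTGTT for TCF/LEF, the factors that act with β-catenin, and GGAAA for the core bound by NFAT factors. The GLI site was searched by its consensus of 9 letters. A RefSeq window was found for 24 of the 26 tested members, and a member with several windows was counted where any of them matched. TCF/LEF letters stood in 2 of these 24, Epha2 and Efna4, against 14.8% of all 32851 windows of this length. NFAT letters stood in 10 of 24 members, against 55.6% of all windows. By direction, they stood in 5 of the 8 members higher in Shh+ cells and in 1 of the 7 higher in Nfatc1+ cells, which was Robo2. They also stood in 4 of the 9 uncalled members with a window. The share of 55.6% is per window and not per gene, and no link between the letters and direction was tested. The Robo1 window holds them 3 times, and the windows of Ephb6 and Ephb1 hold neither motif. GLI letters were found in no member's window and in 0.225% of all windows. A match is a description of the sequence only, and NFAT letters in particular are common.

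Among the ephrins, 3 of 5 A-class genes were higher in Shh+ cells (background 14.9%), one of them, Efna4, narrowly. Of 3 B-class genes, Efnb2 was higher in Nfatc1+ cells (background 16.6%). No difference between the classes was tested. Summed over 5 genes, ephrin-A FPKM was 137.6 and 136.9 in the Nfatc1+ libraries and 181.8 and 173.2 in the Shh+ libraries. Summed over 3 genes, ephrin-B FPKM was 120.3 and 123.4 in the Nfatc1+ libraries and 74.8 and 71.9 in the Shh+ libraries. The A class thus exceeded the B class 1.14-fold and 1.11-fold in the Nfatc1+ libraries and 2.43-fold and 2.41-fold in the Shh+ libraries. The sum over both classes differed less, at 257.9 and 260.4 FPKM in Nfatc1+ and 256.6 and 245.0 FPKM in Shh+ cells. The sums describe 2 libraries against 2 and were not tested.

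Efna1, the ephrin best known as a partner of EphA2, was the most abundant A-class ligand. It was at 51.8 and 53.3 FPKM in the Nfatc1+ libraries and at 88.0 and 86.9 FPKM in the Shh+ libraries. Both Shh+ libraries were high, with a log2 fold change of 0.73 (SE 0.07, limma adjusted p = 0.00364). Efna5, which binds EphA receptors and also EphB2, was at 7.62 and 8.95 FPKM in Nfatc1+ and 15.1 and 14.7 FPKM in Shh+ cells (log2FC 0.81, adjusted p = 0.00691). Efna4 was at 28.9 and 28.6 FPKM in Nfatc1+ cells and 34.9 FPKM in each Shh+ library. Its small change passed the test narrowly (log2FC 0.27, adjusted p = 0.0492), and it lost the call under 9 of 13 alternative settings, where adjusted p reached 0.196.

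The remaining A-class ligands did not pass the test. Efna3 was at 36.0 and 31.3 FPKM in Nfatc1+ cells and at 28.2 and 20.8 FPKM in Shh+ cells (log2FC -0.46, adjusted p = 0.114). Efna2 was at 13.2 and 14.8 FPKM in Nfatc1+ and 15.7 and 15.9 FPKM in Shh+ cells (log2FC 0.17, adjusted p = 0.229). Efna1, Efna3 and Efna4 are neighbours on chromosome 3, with 32.8 kb between Efna1 and Efna3 and 10.4 kb between Efna3 and Efna4. Within this cluster the 2 called genes were higher in Shh+ cells, while the values of Efna3, which lies between them, were lower there. Antisense genes cover 14.1% of the exonic bases of Efna3 and 10.5% of those of Efna4, and whether strand was used in counting is not given in the sources used here.

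Efnb2, the transmembrane ligand preferred by EphB4 and a marker of arteries, carried most of the difference in the B class. It was at 62.8 and 61.9 FPKM in the Nfatc1+ libraries and at 22.2 and 25.7 FPKM in the Shh+ libraries. Every Nfatc1+ value was above every Shh+ value, a 2.61-fold difference (log2FC -1.37, SE 0.10, adjusted p = 0.00163). Efnb2 lies on chromosome 8 of GRCm38 from 8617434 to 8661242, on the minus strand. Its part of the ephrin-B sum was 52.2% and 50.1% in Nfatc1+ and 29.6% and 35.7% in Shh+ cells. Of 8 endothelial marker genes tested, 1 was higher in Shh+ and none in Nfatc1+ cells (background 14.9% and 16.6%). That gene, Esam, had a Nfatc1+ mean of 0.319 FPKM and passed the filter only through its Shh+ values. The 10 listed markers summed to 14.5 to 15.0 FPKM in Nfatc1+ and 15.9 to 16.1 FPKM in Shh+ cells. Egfl7 held the largest part, at 8.87 and 7.33 FPKM in Nfatc1+ and 8.60 and 9.12 FPKM in Shh+ cells. The part of endothelial cells in the Efnb2 values was not tested.

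Efnb1 and Efnb3 were not called. Efnb1, an X-linked gene needed for tissue boundaries in the face and skull, had the highest mean of the class over all 4 libraries together, though Efnb2 was above it in both Nfatc1+ libraries. It was at 53.4 and 56.7 FPKM in Nfatc1+ cells and 48.0 and 43.1 FPKM in Shh+ cells. Its log2 fold change was -0.27 (SE 0.09, 95% interval -0.52 to -0.03, adjusted p = 0.0925). Efnb3 was at 4.08 and 4.80 FPKM in Nfatc1+ and at 4.62 and 3.08 FPKM in Shh+ cells, with overlapping groups (adjusted p = 0.483).

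Ephb6 was the most abundant Eph receptor gene of Nfatc1+ cells and was much lower in Shh+ cells. It encodes an Eph receptor whose kinase domain is inactive, which acts through partner receptors. Ephb6 was at 102 and 107 FPKM in the Nfatc1+ libraries and at 18.6 and 14.0 FPKM in the Shh+ libraries. The lowest Nfatc1+ library was far above the highest Shh+ library, and means differed 6.42-fold (log2FC -2.66, SE 0.15, adjusted p = 0.000949). This was the largest log2FC among the tested members with the pseudocount of 0.5, but with 0.1 that of Ephb1 was larger (-2.81 against -2.69), and so was its plain fold. Ephb6 lies on chromosome 6 from 41605482 to 41620509, on the plus strand, and shares none of its exonic bases with another gene of the GENCODE annotation.

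The EphB sum followed this one gene. It was 187.7 and 199.7 FPKM in Nfatc1+ and 121.7 and 107.1 FPKM in Shh+ cells. Without Ephb6 it was 85.4 and 92.3 FPKM in Nfatc1+ and 103.1 and 93.1 FPKM in Shh+ cells, so that the values of Shh+ cells were then slightly the higher. Ephb6 made up 54.5% and 53.8% of EphB FPKM in Nfatc1+ cells and 15.3% and 13.1% in Shh+ cells.

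The other kinase-inactive receptor, Epha10, was not tested and was listed at 0 in both Nfatc1+ libraries and at 0.0369 and 0.0595 FPKM in the Shh+ libraries. Among the EphB receptors with an active kinase, Ephb1 was called in the same direction as Ephb6. Ephb1 was at 1.30 and 1.504 FPKM in the Nfatc1+ libraries and at 0.127 and 0.102 FPKM in the Shh+ libraries. Both Shh+ values were low, and the means differed 12.2-fold (log2FC -1.63, SE 0.09, adjusted p = 0.000923). Because the level is low, the log2 fold change depends on the pseudocount and was -2.81 with 0.1 and -1.11 with 1, with the call kept. Its mean over the 4 libraries was 0.758 FPKM, so it passed the filter of 0.5 FPKM only through its Nfatc1+ values. With a filter at a mean of 1 FPKM it was not tested. Ephb1 lies on chromosome 9 from 101922128 to 102354693, on the minus strand, and a lincRNA on the other strand covers 2.17% of its exonic bases.

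Ephb2, a receptor of B-class ephrins, was higher in Shh+ cells. It was at 4.02 and 4.63 FPKM in Nfatc1+ and at 8.32 and 7.83 FPKM in Shh+ cells (log2FC 0.83, adjusted p = 0.00557). Ephb4, the receptor paired with Efnb2 in blood vessels, was at 46.2 and 50.04 FPKM in Nfatc1+ and 62.0 and 57.4 FPKM in Shh+ cells. It was not called (log2FC 0.31, adjusted p = 0.0632). Ephb3 was not called either, at 33.9 and 36.1 FPKM in Nfatc1+ and 32.7 and 27.8 FPKM in Shh+ cells (log2FC -0.21, adjusted p = 0.210). Leaving Ephb6 aside, Ephb4 and Ephb3 were thus the most abundant EphB receptors in both populations.

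Within the EphA receptors, Epha1 and Epha2 were higher in Shh+ cells and Epha4 was higher in Nfatc1+ cells. Epha1, the first Eph receptor described and one expressed in skin epithelium, was at 22.6 and 22.4 FPKM in the Nfatc1+ libraries and 38.0 and 39.5 FPKM in the Shh+ libraries. The groups were well apart (log2FC 0.77, SE 0.07, adjusted p = 0.00327). Epha1 shares 6.01% of its exonic bases with Zyx on the other strand. Zyx, the gene of the adhesion protein zyxin, was itself higher in Shh+ cells (15.4 and 16.5 against 22.9 and 24.8 FPKM, adjusted p = 0.0119), and its part in the Epha1 values was not tested. Epha2, a receptor abundant at epithelial cell junctions, was at 14.3 and 15.3 FPKM in Nfatc1+ and at 26.9 and 27.1 FPKM in Shh+ cells (log2FC 0.85, adjusted p = 0.00308).

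Epha4 binds ephrins of both classes. It was at 18.8 and 18.2 FPKM in the Nfatc1+ libraries and at 8.75 and 8.73 FPKM in the Shh+ libraries. Replicates were nearly equal, and the change was of about the fold used as threshold (log2FC -1.04, SE 0.07, adjusted p = 0.00149). Epha4 lies on chromosome 1 from 77367185 to 77515088, on the minus strand. It made up 33.0% and 31.5% of EphA FPKM in Nfatc1+ and 11.7% and 11.4% in Shh+ cells. Epha7 was at 1.04 and 1.64 FPKM in Nfatc1+ and at 1.02 FPKM in each Shh+ library, and was not called (adjusted p = 0.321). The whole EphA class summed to 56.9 and 57.9 FPKM in Nfatc1+ and to 74.9 and 76.6 FPKM in Shh+ cells.

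**Figure D2:**
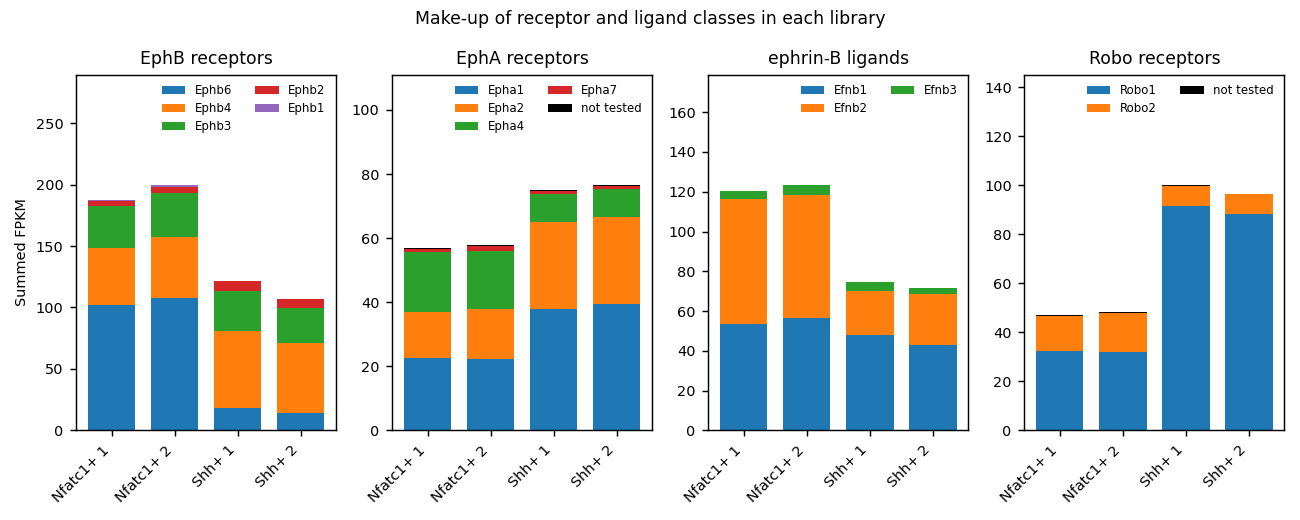
Summed FPKM of the EphB, EphA, ephrin-B and Robo classes in each of the 4 libraries, as bars stacked by gene and starting at 0. Ephb6 accounts for the height of the EphB bars of Nfatc1+ cells, and Robo1 fills 91.6% and 91.5% of the Robo bars of Shh+ cells.

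Epha3, Epha5, Epha6 and Epha8 were not tested. Epha3 was between 0.0729 and 0.195 FPKM and Epha5 between 0.0122 and 0.0853 FPKM over the 4 libraries. Epha8 was at 0.0189 FPKM in Nfatc1+ replicate 1 and 0.0407 FPKM in Shh+ replicate 1 and listed at 0 in the other two, and Epha6, a receptor best known from the nervous system, was listed at 0 in all 4. Summed over both classes, Eph receptor FPKM was 244.5 and 257.6 in Nfatc1+ and 196.6 and 183.7 in Shh+ cells, and without Ephb6 it was 142.3 and 150.2 against 178.0 and 169.7. With Ephb6 the sum was higher in Nfatc1+ cells, and without it in Shh+ cells.

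Robo1 and Robo2, the main Slit receptors outside blood vessels, moved in opposite directions. Robo1 was at 32.5 and 32.2 FPKM in the Nfatc1+ libraries and at 91.7 and 88.3 FPKM in the Shh+ libraries. Both Shh+ libraries stood well above, a 2.79-fold difference (log2FC 1.46, SE 0.07, adjusted p = 0.000775). Robo2 was at 14.4 and 15.6 FPKM in Nfatc1+ and at 8.03 and 8.07 FPKM in Shh+ cells, which makes it 1.86-fold higher in the former (log2FC -0.86, adjusted p = 0.00322). Robo1 exceeded Robo2 2.26-fold and 2.06-fold in the Nfatc1+ libraries and 11.4-fold and 10.9-fold in the Shh+ libraries. The genes are neighbours on chromosome 16, with Robo1 from 72308306 to 73046095 on the plus strand and Robo2 from 73891839 to 74411825 on the minus strand, 845.7 kb apart.

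The other Robo receptors were too low to test. Robo4, the receptor of endothelial cells, was between 0.169 and 0.421 FPKM, and Robo3, known from commissural axons, was listed at 0 in all 4 libraries. These neighbouring genes on chromosome 9 thus added little to the Robo sum, which was 47.2 and 48.2 FPKM in Nfatc1+ and 100.1 and 96.6 FPKM in Shh+ cells.

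The Slit ligands were low in both populations and neither tested gene was called. Slit3 was at 6.44 and 6.03 FPKM in Nfatc1+ and 5.49 and 4.51 FPKM in Shh+ cells (log2FC -0.30, SE 0.12, adjusted p = 0.122). Slit2 was at 0.945 and 1.32 FPKM in Nfatc1+ and at 0.699 and 1.15 FPKM in Shh+ cells, with overlapping groups (adjusted p = 0.483). Slit1 was between 0.0183 and 0.177 FPKM and was not tested. Robo FPKM exceeded Slit FPKM 6.35-fold and 6.55-fold in the Nfatc1+ libraries and 15.9-fold and 16.6-fold in the Shh+ libraries, values that follow Robo1.

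Ntn4 encodes a netrin of basement membranes that binds laminin. It was at 9.09 and 8.49 FPKM in the Nfatc1+ libraries and at 2.76 and 3.12 FPKM in the Shh+ libraries. Both Nfatc1+ libraries were high, 2.99-fold over Shh+ cells (log2FC -1.43, SE 0.09, adjusted p = 0.00126). Ntn4 lies on chromosome 10 from 93640681 to 93747207, on the plus strand. It made up 61.5% and 55.0% of netrin FPKM in Nfatc1+ cells, but 19.8% and 27.6% in Shh+ cells.

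Ntn1 and Ntn3 had higher values in Shh+ cells but were not called. Ntn3 was at 3.79 and 4.86 FPKM in Nfatc1+ and 7.52 and 5.77 FPKM in Shh+ cells (log2FC 0.56, adjusted p = 0.0737). Ntn1, the netrin best known for attracting axons through Dcc, was at 1.71 and 1.95 FPKM in Nfatc1+ and 3.53 and 2.33 FPKM in Shh+ cells (log2FC 0.54, adjusted p = 0.1004). In both genes the Shh+ replicates lay further apart than the Nfatc1+ replicates. Ntn5 was between 0.106 and 0.182 FPKM and was not tested, and 23.4% of its exonic bases are shared with Sec1 on the other strand.

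Neo1 was the main netrin receptor gene in both populations. It was at 37.6 and 37.2 FPKM in the Nfatc1+ libraries and at 28.5 and 27.4 FPKM in the Shh+ libraries (log2FC -0.41, SE 0.07, adjusted p = 0.0182). Unc5b, a receptor of repulsive netrin signals, was at 8.33 and 7.81 FPKM in Nfatc1+ and 10.7 and 10.4 FPKM in Shh+ cells (log2FC 0.37, adjusted p = 0.0289). Neither change reached 2-fold, and both calls ended when any 1 of the 4 libraries was left out. Neo1 exceeded Unc5b 4.51-fold and 4.77-fold in the Nfatc1+ libraries and 2.66-fold and 2.63-fold in the Shh+ libraries. Dcc was listed above 0 in Shh+ replicate 1 alone, at 0.00912 FPKM, and at 0 in the other libraries. The remaining Unc5 genes were too low to test, with Unc5a between 0.0974 and 0.365 FPKM, Unc5c between 0.0203 and 0.0654 FPKM and Unc5d between 0.0330 and 0.328 FPKM.

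**Figure D3:**
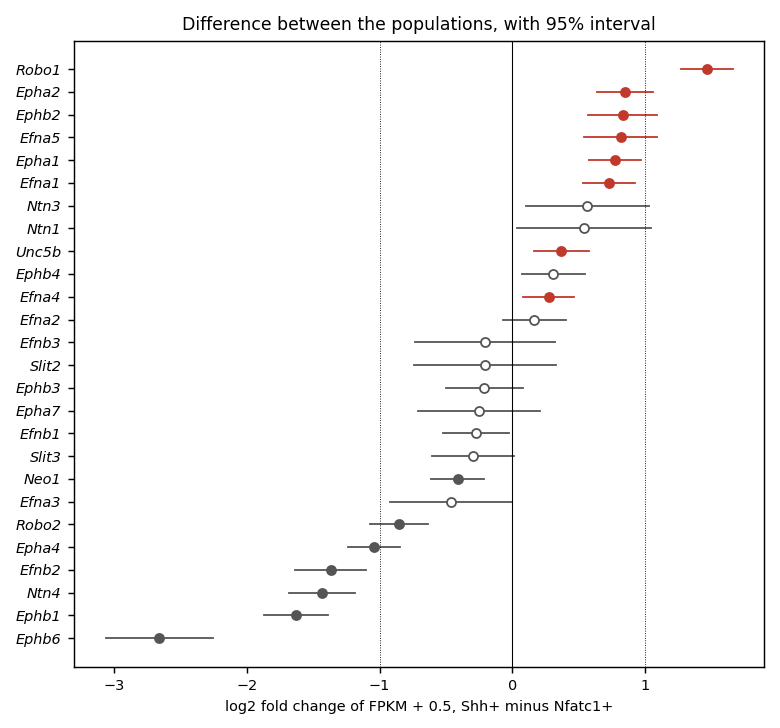
Log2 fold change (Shh+ minus Nfatc1+) of the 26 tested guidance genes, with bars for the 95% interval from limma and dotted lines at a fold of 2. Robo1 lies beyond the line on the Shh+ side, and Ephb6, Ephb1, Ntn4, Efnb2 and Epha4 lie beyond it on the Nfatc1+ side.

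Other genes of these pathways, on lists of signal transducers, co-receptors and further ligands, also differed in both directions. Of 67 tested genes on 3 lists, 17 were called toward Shh+ and 10 toward Nfatc1+ cells, against 14.9% and 16.6% of all tested genes. Their median log2 fold change was 0.02. At a fold of at least 2, 6 were called toward Shh+ and 1 toward Nfatc1+ cells, against 4.7% and 5.72% of all tested genes. The count toward Nfatc1+ cells was thus not above the background in either form. The 17 toward Shh+ cells include the netrin-G genes Ntng1 and Ntng2, and the 6 include Ntng2, though these genes lie outside the netrin receptor pathway. Ntng2 also passed the filter only through its Shh+ values. The 10 genes called higher in Nfatc1+ cells fell to 5 when Nfatc1+ replicate 1, Shh+ replicate 1 or Shh+ replicate 2 was left out, and to 4 without Nfatc1+ replicate 2.

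Of 32 tested Eph-ephrin effectors, 9 were called toward Shh+ and 6 toward Nfatc1+ cells (background 14.9% and 16.6%). The 6 fell to 2 without Nfatc1+ replicate 2 and to 3 without any 1 of the other libraries. Grb10, an adaptor of receptor tyrosine kinases, was at 6.79 and 8.103 FPKM in Nfatc1+ and at 60.5 and 58.7 FPKM in Shh+ cells (log2FC 2.92, adjusted p = 0.000502). Arhgef16, an exchange factor that works with EphA2, was at 4.78 and 4.32 FPKM in Nfatc1+ and 15.46 and 13.1 FPKM in Shh+ cells (log2FC 1.55). Kalrn, an exchange factor for Rac downstream of EphB receptors, rose likewise toward Shh+ cells (log2FC 1.40), as did Chn1, a Rac-inactivating protein downstream of EphA4 (1.03). The genes higher in Nfatc1+ cells were led by smaller changes. Mllt4, whose product afadin joins junctions to actin, had a log2 fold change of -0.82. Nck2, an adaptor of ephrin-B reverse signalling that also stands on the Slit-Robo list, had -0.74, the Src-family kinase gene Yes1 had -0.62 and the Rac exchange factor gene Tiam1 had -0.42. The call of Yes1 ended without Nfatc1+ replicate 2 (adjusted p = 0.0636), and that of Tiam1 without any 1 of the 4 libraries (adjusted p = 0.0651 to 0.111).

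Of 22 tested Slit-Robo effectors, 4 were higher in Shh+ cells and 2, Nck2 and Sdc1, in Nfatc1+ cells, which is near or below the background of 14.9% and 16.6%. The 2 became 1 without any 1 of the 4 libraries and 4 with a trended prior in limma. Gpc1, a glypican that binds Slits, was at 50.6 and 55.4 FPKM in Nfatc1+ and at 134.9 and 130.7 FPKM in Shh+ cells (log2FC 1.32, adjusted p = 0.00126). Srgap1, a GTPase-activating protein that binds Robo, had a log2 fold change of 0.89. The actin regulator Evl had 0.78, and Flrt3, a membrane protein that binds Robo1 and Unc5 receptors, had 0.76. The call of Flrt3 ended narrowly without Shh+ replicate 1 (adjusted p = 0.0505) or 2 (0.0508). Sdc1, the heparan sulphate proteoglycan syndecan-1, had -0.47, and its call ended without any 1 of the 4 libraries (adjusted p = 0.0514 to 0.0707). Gpc1 was the one gene of this list at a fold of at least 2.

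Of 22 tested genes on the list of netrin effectors and other ligands of Neo1 or Unc5, 5 were called toward Shh+ and 3 toward Nfatc1+ cells (background 14.9% and 16.6%). Among the 5 were Ntng1 and Ntng2, netrin-G genes that are neither netrin effectors nor ligands of Neo1 or Unc5. The rest were the ligand genes Flrt1, Flrt2 and Flrt3, the last also on the Slit-Robo list. No netrin effector of the list was thus called toward Shh+ cells. The 5 fell to 3 without Shh+ replicate 2. Rgma, a membrane-anchored ligand of neogenin, was at 89.4 and 87.3 FPKM in the Nfatc1+ libraries and at 24.3 and 20.6 FPKM in the Shh+ libraries. Rgma was thus higher in both Nfatc1+ libraries (log2FC -1.96, adjusted p = 0.000885), in the direction of its receptor gene Neo1. Its relative Rgmb, on the same list, did not share this direction and was not called. Rgmb was at 55.3 and 50.6 FPKM in Nfatc1+ and 53.1 and 53.0 FPKM in Shh+ cells, with overlapping groups (log2FC 0.004). Ntng2, a lipid-anchored netrin-G that does not bind Dcc, was at 0.3001 and 0.194 FPKM in Nfatc1+ cells. In the Shh+ libraries it was at 6.82 and 4.88 FPKM (log2FC 3.07, limma adjusted p = 0.000983). With a mean of 0.247 FPKM in Nfatc1+ cells, Ntng2 passed the filter of 0.5 FPKM only through its Shh+ values. Its log2 fold change ranged from 2.44 to 4.10 over the alternative settings. Its relative Ntng1 had a log2 fold change of 0.96, and the Unc5 ligand gene Flrt1 had 0.64, a call that ended when Nfatc1+ replicate 1 (adjusted p = 0.0548) or, separately, Shh+ replicate 2 (adjusted p = 0.0599) was left out. Dapk1, a kinase of Unc5 death signalling, had -0.93, and Maged1, an Unc5-binding protein, had -0.37. Maged1 lost its call under 9 of 13 alternative settings, where adjusted p reached 0.173.

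**Figure D4:**
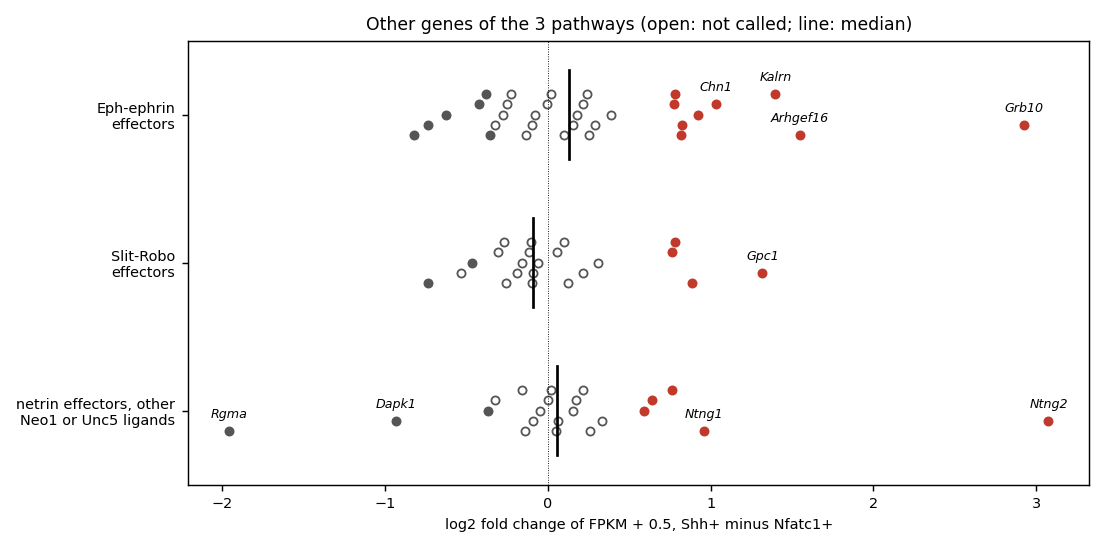
Log2 fold change (Shh+ minus Nfatc1+) of each tested gene on the 3 lists of effectors and further ligands, with a line at each list's median. The medians lie at 0.13 for the Eph-ephrin, -0.09 for the Slit-Robo and 0.06 for the netrin list. Grb10 and the netrin-G gene Ntng2 lie far on the Shh+ side and Rgma on the Nfatc1+ side.

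Markers of other cells and of cell stress also differed between the groups, and their counts stand against the 14.9% (Shh+) and 16.6% (Nfatc1+) called over all tested genes. Nfatc1+ cells had more of 8 of the 10 tested Merkel cell genes. Among these, Atoh1, Krt20, Isl1 and Insm1 had Shh+ means under 0.5 FPKM and passed the filter only through their Nfatc1+ values. The list summed to 65.5 to 73.9 FPKM in Nfatc1+ and to 24.5 to 29.8 FPKM in Shh+ cells. Krt8 held the largest part, at 25.0 and 29.2 FPKM in Nfatc1+ and 17.1 and 20.4 FPKM in Shh+ cells. Of 11 tested sebaceous genes, 7 were higher in Nfatc1+ and 1 in Shh+ cells, with list sums of 427 to 467 FPKM and 676 to 686 FPKM. Among the 7, Pparg, Cidea and Elovl3 had Shh+ means under 0.5 FPKM and passed the filter only through their Nfatc1+ values. The higher sum of Shh+ cells came from Fabp5, at 212.5 and 206.2 FPKM in Nfatc1+ and 570.6 and 581.6 FPKM in Shh+ cells, a gene not particular to sebaceous cells. Of 19 tested immediate early genes, which tissue digestion can induce, 12 were higher in Nfatc1+ cells, with sums of 3310 to 3754 FPKM against 1574 to 1665 FPKM. Of 10 epithelial identity genes, 5 were higher in Nfatc1+ and 1 in Shh+ cells. For fibroblasts 1 of 9 was higher in Shh+ cells, with sums of 405 to 690 FPKM in Nfatc1+ and 633 to 745 FPKM in Shh+ cells. That gene was Dcn, at 40.3 and 57.7 FPKM in Nfatc1+ and 326.4 and 424.7 FPKM in Shh+ cells, while the median log2FC of the list was -0.52, toward Nfatc1+ cells. For smooth muscle 1 of 4, Mcam, was higher in Nfatc1+ cells (96.2 to 97.7 against 68.4 to 74.9 FPKM). Most of these sums came from Mcam (58.6 and 55.7 against 34.4 and 36.1 FPKM) and Cspg4 (35.3 and 36.7 against 35.8 and 27.8 FPKM). Acta2, Myh11, Rgs5 and Des were too low to test, and Tagln (log2FC 0.71) and Pdgfrb (0.40) were not called. For melanocytes 1 of 8, Mitf, was higher in Nfatc1+ cells (9.74 and 12.3 against 0.860 and 1.29 FPKM). The list summed to 29.0 to 60.1 FPKM in Nfatc1+ and 6.24 to 39.8 FPKM in Shh+ cells, with overlapping ranges. The 7 uncalled melanocyte genes overlapped between the groups, and in both groups replicate 2 was above replicate 1 for each. Of 6 dermal papilla genes, 2 were called toward Shh+ and 1 toward Nfatc1+ cells. Alpl, called toward Shh+ cells, had a Nfatc1+ mean of 0.153 FPKM and passed the filter only through its Shh+ values. The list summed to 81.0 to 94.6 FPKM in Nfatc1+ and to 61.6 to 62.0 FPKM in Shh+ cells. Cxcr4, the gene called toward Nfatc1+ cells, held the largest part of the sum there. None of 4 Schwann cell and neuron genes and none of 4 immune genes was called by limma, and 2 of 10 immune markers were listed at 0 in all 4 libraries. The part of these cells and of digestion in the guidance gene values was not tested.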

How the data were processed

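RNA from sorted GFP+RFP+ cells was sequenced as paired-end reads. The authors used TopHat (v2.0.13) to map reads to GRCm38/mm10, and the deposited unit is the FPKM value given by Cufflinks (v2.2.1). HTSeq stands in the submitters' processing notes with no stated role, and the annotation, the version of HTSeq and the use of strand are not given in the sources used here. No counts were used, so depth is unknown and only relative depth is given.

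From these FPKM values, genes whose mean over 4 libraries reached 0.5 FPKM were tested two-sided on log2(FPKM + 0.5) with limma (v3.58.1, R v4.3.3), with 2 libraries per group, no covariate and Benjamini-Hochberg adjustment over 12750 genes. The procedure was run on simulated data with independent noise and fewer changed genes than were called here, all of at least 2-fold. That run does not show how it performs on the present libraries. Figures were drawn with matplotlib (v3.10.9). Alternatives covered the pseudocount, filter, scaling, TPM, the replicate number as a block, a trended prior, each library left out and a threshold of unadjusted p under 0.01 with a fold above 2.

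Members and gene lists were chosen with earlier results of these data known. All tested members are named. Standard errors are given for members called at a fold of at least 2 and for the most abundant member of each class, and up to 4 called genes per effector list and direction, by largest change, are named. Positions come from GENCODE for GRCm38 and upstream sequence from RefSeq (GRCm38.p6).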

Additional observations from a re-analysis of the deposited data

How the results depend on the processing

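Of the 15 called members, 6 kept their call under every alternative in which they were tested (12 for Ephb1, 13 for the others), and 9 lost it under some. The 6 are those that differed by at least 2-fold. The alternatives include the threshold with a fold above 2, where the other 9 were bound to lose their call. For Epha1, Epha2, Ephb2, Efna1, Efna5 and Robo2 it was the only alternative that ended the call, while Efna4, Neo1 and Unc5b lost it under others too. Under an unadjusted p below 0.01 with a fold above 2, members higher in Shh+ cells went from 8 to 1, effector genes higher in Shh+ cells from 17 to 6 and effector genes higher in Nfatc1+ cells from 10 to 1. That form needs a fold that most of these genes do not reach. Leaving out 1 library in turn gave 4 to 5 effector genes higher in Nfatc1+ cells. Over all tested genes, the 1898 calls toward Shh+ cells became 591 under the threshold with a fold above 2, and the 2111 toward Nfatc1+ cells became 720. Both numbers were also smaller with any 1 library left out.

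Leaving out 1 library in turn moved the log2 fold change of Efnb3 from -0.20 to between -0.46 (without Shh+ replicate 1) and 0.054 (without Shh+ replicate 2). That of Slit2 moved from -0.21 to between -0.43 (without Shh+ replicate 2) and 0.022 (without Shh+ replicate 1). Neither gene was called. Another 5 uncalled genes, Ephb4, Efna3, Efnb1, Ntn3 and Ntn1, gained a call under some alternative. The causes were not tested.

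With the replicate number as a block, 15 members were called (7 higher in Shh+ and 8 in Nfatc1+ cells), as many as without the replicate block, with Efna4 lost and Efna3 gained (adjusted p = 0.042), and 3699 genes in all against 4009. Same-numbered libraries correlated at 0.11 in their deviations, and with 2 pairs the numbers are not shown to pair the libraries. Depth limits the low members most, above all in Shh+ replicate 2.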
